A study of Sus scrofa with 5 samples.

Results

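The nuclei described here carried high NTRK2 and little KIT in dorsal root ganglia of the pig. They were chosen by at least 2 unique molecular identifiers (UMIs, each standing for 1 captured RNA molecule) of NTRK2, at least 5 NTRK2 UMIs per 10000 UMIs of the nucleus, and fewer than 2 UMIs of KIT. Of 2189 nuclei in the table, 197 met the rule (9.0%, exact binomial 95% interval 7.83 to 10.3%). They are called NTRK2-high nuclei below, and the other 1669 nuclei with at least 1500 UMIs are called comparison nuclei. The study profiled single nuclei from 80 mg of thoracic and lumbar ganglia per sample, taken from 5 male Landrace pigs that formed 1 untreated group; no age was used here. The isolation protocols differed in the detergent, which was IGEPAL CA-630 in some samples and Triton X-100 in others, and in how debris was removed or nuclei carrying the neuronal protein NeuN were enriched, so shares of nuclei describe what was captured and not the ganglion.

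NTRK2 encodes TrkB, the receptor tyrosine kinase for brain-derived neurotrophic factor (BDNF) and neurotrophin-4. Ligand binding activates the kinase, which signals through adaptor proteins to the Ras-MAP kinase, PI3 kinase and phospholipase C gamma branches. In sensory ganglia of the mouse, TrkB is known from fast-conducting low-threshold touch afferents of hair follicles, and TrkC (NTRK3) from other large touch afferents and muscle afferents. NTRK2 also has a truncated form without the kinase, and counts of 3' ends do not separate the forms. NTRK2 lies on chromosome 10, bases 30030050 to 30429938 of Sscrofa11.1, the build of the RefSeq gene table used here.

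Barcode endings separated 6 libraries, and a map from library to pig was not at hand, so all nuclei form 1 pooled sample. No test was run, and every 95% interval (exact Poisson for levels, exact conditional binomial for ratios, exact binomial for shares) covers counting error only. No barcode was shared between libraries. Levels are given as counts per 1000000 UMIs of the pooled nuclei (CPM), and a gene is called higher or lower from a ratio of CPM of at least 2-fold among genes whose UMIs on the 2 sides summed to 50 or more. The NTRK2-high nuclei held 1243303 of 17277376 UMIs. Their median depth was 3957 UMIs against 5654 in comparison nuclei, and 22 of them lay below 1500 UMIs. Of the comparison UMIs, 18.5% came from nuclei above 50000 UMIs, of which the NTRK2-high set held none. The mitochondrial genome took 7.64% of UMIs in NTRK2-high and 7.55% in comparison nuclei.

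The NTRK2-high nuclei came mainly from library 3, with 97 nuclei (12.0% of that library), and library 1, with 51 (7.48%). Library 5 held 21, library 6 held 19 and library 4 held 9. Library 2 held none of its 13 nuclei, which allows a share of up to 23.1% (3 counts of 13; the exact 95% interval reaches 24.7%). Libraries 2 and 4 were deep: the 5 comparison nuclei of library 2 had a median of 168280 UMIs and the 53 of library 4 a median of 18417 UMIs.

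NTRK2 chose the nuclei, so its level is a description. It stood at 1733 CPM in NTRK2-high and 122 CPM in comparison nuclei, and the chosen nuclei held 2155 of all 4118 NTRK2 UMIs. Within the set NTRK2 ran from 5.09 to 100.7 UMIs per 10000, with a median of 14.6. Just inside the rule, 38 nuclei had exactly 2 NTRK2 UMIs and 20 lay between 5 and 6 per 10000. Just outside, 34 nuclei lay between 4 and 5 per 10000, and 81 nuclei with a median of 1430 UMIs reached 5 per 10000 with 1 UMI. A further 184 nuclei had 2 or more UMIs of NTRK2 but too low a rate, with a median of 12322 UMIs. The KIT limit alone left out 29 nuclei, 17 of them with exactly 2 KIT UMIs.

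Of the 6 other genes listed as marks of these neurons, 5 were at least 2-fold higher in the NTRK2-high nuclei and RYR3 was not. Over all genes 3.88% were higher. The marks were listed with earlier results of these data known, so their levels are a description and no independent check. SKOR2, a transcriptional corepressor of the SKI family, stood furthest apart: it measured 133.5 CPM in NTRK2-high and 2.80 CPM in comparison nuclei, a 47.6-fold difference (interval 34.0 to 68.0). In libraries 1, 3, 4, 5 and 6 the NTRK2-high nuclei carried SKOR2 at 52.7, 171, 67.7, 175 and 178 CPM. The comparison nuclei of the same libraries carried 2.68, 2.60, 5.12, 4.05 and 1.91 CPM, so the sides did not overlap. SKOR2 lies on chromosome 1, bases 96795362 to 96842360 of Sscrofa11.1.

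SKOR2 was found in 73 NTRK2-high nuclei and in 35 of the others, 27 of which had a single UMI (1 UMI) of it. The NTRK2-high nuclei held 166 of its 212 UMIs (78.3%). After every nucleus was thinned to 1500 UMIs, leaving out the 22 shallower ones, 16.6% of NTRK2-high nuclei (29 of 175, interval 11.4 to 22.9%) and 0.42% of comparison nuclei (7 of 1669) had a SKOR2 UMI. Without thinning the shares were 37.1 and 1.98%. Among 220 comparison nuclei rich in the itch receptor gene IL31RA, with a median of 7760 UMIs, the thinned share was 0.45%. Of the 35 nuclei with SKOR2 outside the set, 24 also had at least 1 NTRK2 UMI. The source of the SKOR2 UMIs outside the set was not tested.

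HS3ST4, which adds 3-O-sulfate groups to heparan sulfate chains, measured 557 against 81.0 CPM (6.88-fold, interval 6.27 to 7.56). By library (1, 3, 4, 5, 6) it was 96.0, 653, 48.4, 1070 and 849.5 CPM in NTRK2-high nuclei. In comparison nuclei of libraries 1, 3, 5 and 6 it did not exceed 72.4 CPM, whereas those of library 4 carried 231 CPM, more than the 9 NTRK2-high nuclei there. The 5 comparison nuclei of library 2, with 756052 UMIs, carried 423 CPM and enter the pooled level of 81.0 CPM. ZMAT4, a zinc finger protein, measured 1018 against 112 CPM (9.07-fold, 8.43 to 9.75), and NTNG1, the membrane-anchored netrin-G1 of axons, 306 against 35.1 CPM (8.70-fold, 7.61 to 9.93). In library 4 ZMAT4 measured 145 CPM in NTRK2-high and 150 CPM in comparison nuclei. NTNG1 was higher in NTRK2-high nuclei of all 5 libraries, at 266, 375, 126, 209 and 420 CPM.

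KCNQ3, a subunit of the slow M-type potassium channel, measured 368 against 94.9 CPM (3.87-fold, 3.48 to 4.31). Its log2 ratio lay between 1.96 and 3.65 in libraries 1, 3, 5 and 6, but in library 4 the comparison nuclei carried 549 CPM and the NTRK2-high nuclei 96.7 CPM. Without library 4 the log2 ratio rose from 1.95 to 3.14. RYR3, a calcium release channel of internal stores, measured 58.7 against 52.4 CPM (1.12-fold, 0.870 to 1.42). By library it was 9.29, 30.9, 0, 73.0 and 220 CPM in NTRK2-high nuclei, and the 223 CPM in comparison nuclei of library 4 exceeded all of these. RYR3 therefore did not mark the set: its log2 ratio was 0.94 without library 4 and -0.81 without library 6.

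**Figure D1:**
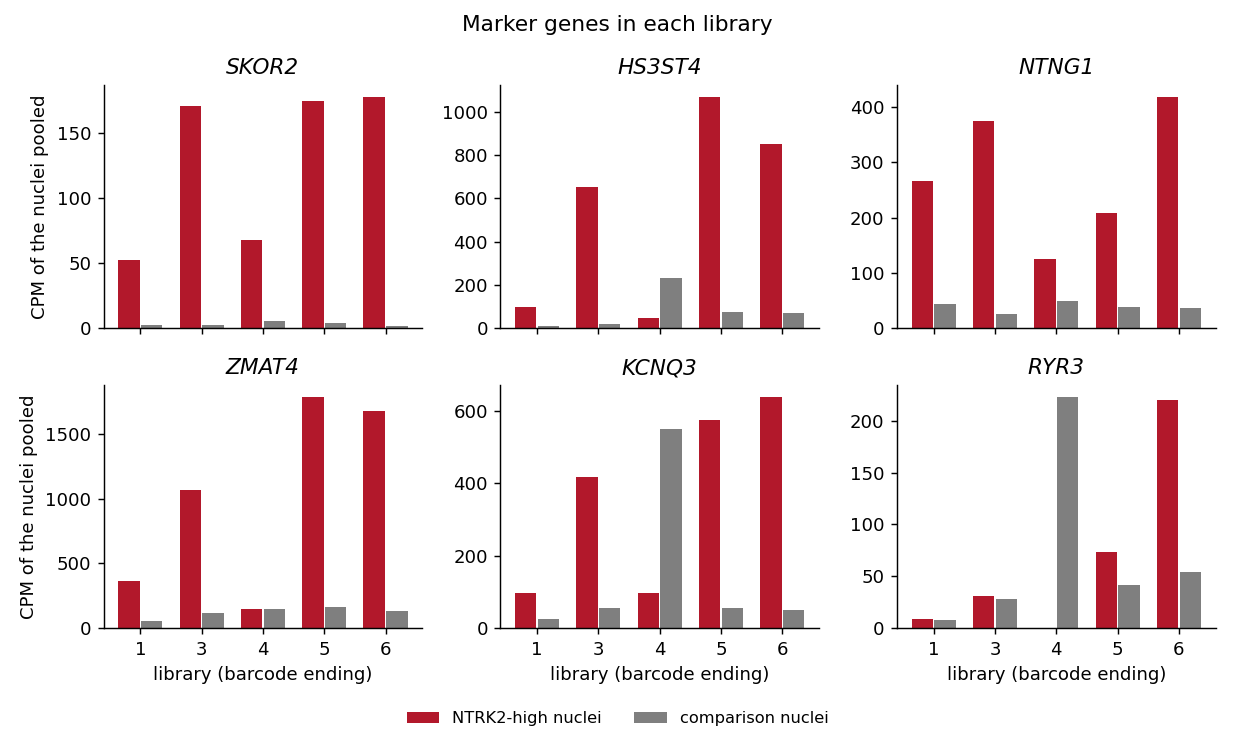
Levels (CPM, pooled UMIs of the nuclei) of 6 marker genes in NTRK2-high nuclei (red bars) and comparison nuclei (grey bars) in libraries 1, 3, 4, 5 and 6; library 2 held no NTRK2-high nucleus. SKOR2 and NTNG1 were higher in NTRK2-high nuclei in each library shown, whereas in library 4 HS3ST4, KCNQ3 and RYR3 were higher in comparison nuclei and ZMAT4 was not higher in NTRK2-high nuclei.

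Over all genes, 514 of 13256 (3.88%) were at least 2-fold higher in NTRK2-high nuclei and 1107 (8.35%) at least 2-fold lower, with a median log2 ratio of -0.04. Genes named next were ranked by the interval bound nearest to 1 and had the same sign in every library that gave a ratio. Beside the 4 markers above, the ranking put CBLN2, LRATD1, TBX3, S1PR3, BAIAP2L1, GPC5, ST8SIA4, CPA6, CHRNB3, NETO1 and DACH1 among the 15 highest. Library 4, with 9 NTRK2-high nuclei, gave no ratio, and there ZMAT4, HS3ST4, GPC5 and CPA6 were not higher in NTRK2-high nuclei.

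TBX3, a T-box repressor, measured 149 against 12.1 CPM (12.3-fold, 9.98 to 15.1), and DACH1, a transcription cofactor, 546 against 90.3 CPM (6.05-fold). TBX3 was higher in NTRK2-high nuclei of all 5 libraries (170, 202, 281, 43.8 and 36.7 CPM, against at most 18.1 CPM in the comparison nuclei of the same libraries). GPC5, a glypican that carries heparan sulfate at the cell surface, measured 1432 against 227 CPM (6.31-fold), but 67.7 against 261 CPM in library 4. CBLN2, a secreted cerebellin that binds neurexins at synapses, measured 91.7 against 6.18 CPM (14.8-fold, 11.2 to 19.6). Its level was uneven, at 186 and 222 CPM in NTRK2-high nuclei of libraries 1 and 4 but 5.24 CPM in those of library 6.

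The other genes of the group included receptors and enzymes. S1PR3, a receptor for sphingosine-1-phosphate, measured 41.8 against 3.32 CPM (12.6-fold). CHRNB3, a subunit of nicotinic acetylcholine receptors, measured 39.4 against 4.78 CPM (8.24-fold), with 31.5 to 67.7 CPM over the NTRK2-high nuclei of the 5 libraries and at most 6.59 CPM in comparison nuclei. ST8SIA4, which builds polysialic acid, was 7.22-fold higher, and NETO1, an auxiliary subunit of kainate receptors, 7.20-fold higher. The remaining 3 were LRATD1 (18.7-fold, on 34 UMIs), CPA6, a carboxypeptidase (7.32-fold), and BAIAP2L1, an adaptor of membrane and actin (7.24-fold).

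Of the 10 lower genes named, IL31RA, SCN10A, SCN11A and TRPC6 belonged to the list of nociceptor genes. IL31RA, a subunit of the interleukin-31 receptor, measured 16.9 against 289 CPM (17.1 times lower, interval 11.2 to 27.7). SCN10A and SCN11A, the sodium channels Nav1.8 and Nav1.9 of nociceptors, measured 61.9 against 544 CPM (8.79 times lower) and 50.7 against 321 CPM (6.33 times lower). PDE4C, a cyclic AMP phosphodiesterase, TMC3, NOS1, the neuronal nitric oxide synthase, and ASS1, an enzyme of arginine synthesis, were 7.16 to 7.70 times lower. DGKK, SLC5A7 and TRPC6 completed the list, TRPC6 with 3 UMIs (11.3 times lower, 3.83 to 54.9). Leaving out library 5 moved NOS1 from a log2 ratio of -2.94 to -3.69 and DGKK from -2.95 to -3.82, and leaving out library 6 moved TRPC6 from -3.50 to -4.50.

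**Figure D2:**
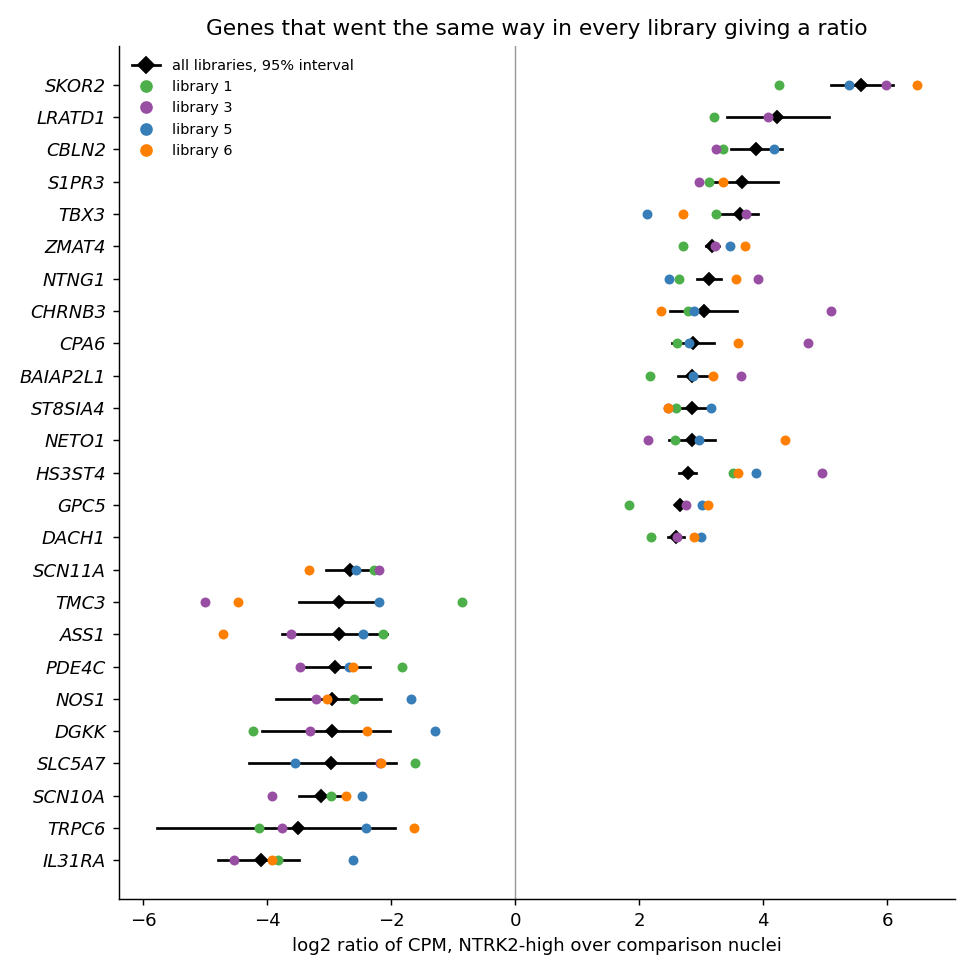
Log2 ratio of CPM in NTRK2-high over comparison nuclei for the 15 higher and 10 lower genes that the ranking named; black diamonds and bars give the ratio over all libraries with its 95% counting interval, coloured points the ratio within libraries 1, 3, 5 and 6. SKOR2 lay at 5.57 over all libraries and between 4.25 and 6.49 within them, and IL31RA between -4.54 and -2.61 within them.

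The label of touch neurons was checked against marker lists. Of 7 A-fibre touch markers with enough UMIs, SLC17A7 and CACNA1H were higher, NTRK3 was lower and 4 lay between. Over all genes 3.88% were higher and 8.35% lower. SLC17A7, the vesicular glutamate transporter VGLUT1, measured 55.5 against 12.2 CPM (4.53-fold), and CACNA1H, the T-type calcium channel Cav3.2, 149 against 34.9 CPM (4.27-fold). Within libraries 1, 3, 5 and 6 the log2 ratio of CACNA1H lay between 1.85 and 2.66 and that of SLC17A7 between 1.59 and 3.62. KCNS1 (1.78-fold), MAF (1.44-fold), ESRRG (1.18-fold) and COLQ (1.13-fold) did not reach 2-fold. CALB1 had no UMI in NTRK2-high nuclei and 10 in comparison nuclei, which at this depth gives no difference.

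NTRK3 measured 57.1 against 221 CPM (3.87 times lower), and 987 CPM in the comparison nuclei of library 4; without that library its log2 ratio moved from -1.95 to -1.33. PIEZO2, the principal mechanically gated channel of touch, measured 1365 against 612 CPM (2.23-fold, 2.12 to 2.35). PIEZO2 was higher in NTRK2-high nuclei of libraries 1, 3, 5 and 6 (737, 1257, 2588 and 1993 CPM against 302, 348, 1008 and 812 CPM). In library 4 it was lower, at 174 against 640 CPM. The touch list thus went in both directions, and the set is called by its rule here.

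Of the markers of other sensory neurons with enough UMIs, 3 of 4 proprioceptor, 2 of 3 peptidergic, 4 of 7 nonpeptidergic and C-touch and 3 of 6 itch markers were lower, none of 4 cold-neuron markers was, and none of these lists held a higher one (over all genes 3.88% were higher and 8.35% lower). The lower proprioceptor markers were PVALB, a calcium buffer (30.6 against 75.9 CPM), ETV1 (46.7 against 180 CPM) and RUNX3, which rested on 2 UMIs and, without library 3 or 4, moved from a log2 ratio of -1.72 to -1.13 or -1.10. TAC1, the gene of substance P, measured 408 against 1589 CPM, and ADCYAP1, the gene of the peptide PACAP, 28.2 against 109 CPM, whereas TRPV1, the capsaicin receptor, had a log2 ratio of -0.90. TAC1 was uneven between libraries on both sides: it measured 1007 CPM in NTRK2-high nuclei of library 1, where comparison nuclei carried 3718 CPM, and 146 CPM in those of library 5, where they carried 407 CPM. The part of free RNA in these TAC1 levels was not tested.

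Of 29 nociceptor genes, 22 were lower and none was higher, with a median log2 ratio of -1.67; over all genes 8.35% were lower. They included 8 of 10 channels (such as TRPA1 and TRPC4), 9 of 13 receptors (such as OPRM1) and 5 of 6 peptides (such as NPPB, at 46.7 against 209 CPM). TRPM8, the cold channel, measured 131 against 126 CPM.

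Pan-neuronal markers summed to 10015 CPM in NTRK2-high and 8365 CPM in comparison nuclei, and none of the 8 differed by 2-fold. Satellite glia markers (all 8 detected) summed to 1048 against 809 CPM, and Schwann cell markers (all 9 detected) to 998 against 974 CPM. In the NTRK2-high nuclei of library 4 these sums were 2351 and 1635 CPM, against 1121 and 843 CPM in its comparison nuclei. Of the satellite markers FABP7 was higher (14 UMIs, 2.49-fold), KCNJ10 was lower (2 UMIs, 2.02 times lower) and 6 lay between. Over all genes 3.88% were higher and 8.35% lower. The part of glial RNA in the gene ratios was not tested.

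Of 59 neurotrophin pathway genes with enough UMIs, 2 were higher and 7 lower (over all genes 3.88% were higher and 8.35% lower), with a median log2 ratio of -0.07 against -0.04 over all genes. Of the ligands, BDNF measured 9.65 against 21.8 CPM (2.26 times lower, 1.28 to 4.42), and without library 1 its log2 ratio moved from -1.18 to -1.91. NTF3 had 1 UMI and NTF4 6 UMIs in NTRK2-high nuclei.

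Among receptors, NGFR, the low-affinity receptor p75 that binds all neurotrophins, measured 208 against 112 CPM (1.85-fold), with log2 ratios of 0.48 to 0.67 in libraries 1, 3 and 5 and -1.33 in library 6. The sorting receptors went both ways: SORT1 and SORCS1 were 1.54 and 1.40 times lower and SORCS3 had a log2 ratio of -0.48. SORL1 and SORCS2 had log2 ratios of 0.82 and 0.41.

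Among the signalling proteins behind the receptor, PIK3R1, a regulatory subunit of PI3 kinase, measured 216 against 83.4 CPM (2.59-fold, 2.27 to 2.96), with log2 ratios between 1.07 and 1.38 in libraries 1, 3, 5 and 6. PLCG1, which encodes phospholipase C gamma itself, was 2.24 times lower, and the adaptor SHC3 2.06 times lower. The adaptors FRS2 (1.09-fold) and GAB1 (1.16-fold) differed little. CAMK4, a calcium-dependent kinase of the nucleus, measured 22.5 against 70.6 CPM (3.14 times lower); CAMK2A, also called lower, rested on 2 UMIs. Of the targets, MEF2C, an activity-dependent transcription factor, measured 236 against 70.8 CPM (3.34-fold, 2.93 to 3.80), with log2 ratios between 1.37 and 1.97 in the same libraries, while VGF was 1.45-fold higher.

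Of 49 potassium and HCN channel genes, 10 were higher and 8 lower (over all genes 3.88% were higher and 8.35% lower). KCNV1 and KCNG4, silent subunits that modify other potassium channels, measured 157 against 27.9 CPM (5.63-fold) and 53.9 against 12.6 CPM (4.29-fold). KCNG1 and KCNG2, of the same family as KCNG4, were lower, KCNG2 with a log2 ratio of -2.71, so silent subunits went both ways. KCNA1, the axonal Kv1.1 channel, measured 104 against 40.4 CPM (2.57-fold), and its partner KCNAB1 215 against 68.5 CPM (3.14-fold). DPP10, an auxiliary subunit of A-type channels, was 2.96-fold higher, whereas KCND3, an A-type pore, was 3.81 times lower. Within the M-channel family KCNQ3 was higher and KCNQ5 was lower, at 172 against 626 CPM (3.63 times lower). The log2 ratio of KCNQ5 lay between -2.60 and -1.39 in libraries 1, 3, 5 and 6.

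Against the same shares of 3.88% and 8.35% over all genes, 2 of 12 sodium channel genes were higher and 3 lower. SCN1A (216 against 103 CPM, 2.10-fold) was among those higher, and SCN10A, SCN11A and the modulator FGF12 were lower. SCN8A, the nodal channel Nav1.6, measured 198 against 191 CPM. Of 25 genes of calcium entry, release and buffering, CACNA1H was higher and 6 were lower (3.88% and 8.35% over all genes), among them RYR2 (541 against 1224 CPM) and CALB2 (16.1 against 44.9 CPM, whose log2 ratio moved from -1.48 to -2.15 without library 1). Of 17 mechanical transduction genes, 1 was higher and 2 lower (3.88% and 8.35% over all genes). PIEZO2 was the higher one, and ASIC2, an acid-sensing channel (90.1 against 314 CPM), and TMC3 (19.3 against 138 CPM) were lower. TMEM150C, a membrane protein linked to mechanical currents, measured 130 against 66.2 CPM (1.97-fold).

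Of 12 GABA-A receptor subunit genes, 4 were higher and 1 lower (3.88% and 8.35% over all genes). GABRA2 (379 against 173 CPM, 2.19-fold), GABRB1 (3.17-fold) and GABRB2 (2.88-fold) were among those higher. Libraries disagreed on GABRB1 and GABRB2: in library 6 the log2 ratio of GABRB2 was -0.13, and in library 5 that of GABRB1 was -0.10. GABRB1 moved from 1.67 to 1.03 without library 3. GRIA4, an AMPA receptor subunit, was 2.19-fold higher, with log2 ratios of 1.14 to 2.16 in libraries 1, 3, 5 and 6. CPLX1 and CPLX2, the complexins that clamp vesicle release, were 2.72-fold and 2.38-fold higher. Of 23 synaptic adhesion genes, NTNG1, CBLN2 and CNTN6, a contactin (3.09-fold), were higher and 7 lower (3.88% and 8.35% over all genes). LRRC4C, which encodes the receptor of netrin-G1, measured 115 against 132 CPM.

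Among 38 transcription factor genes, SKOR2, TBX3, ZMAT4, ONECUT2 (2.35-fold), SHOX2 (2.10-fold) and CASZ1 (2.15-fold) were higher and 9 were lower (3.88% and 8.35% over all genes). The lower ones included RUNX1 (107 against 243 CPM) and PRDM12 (26.5 against 86.9 CPM), both known from nociceptors, and KLF5 (12.1 against 52.1 CPM). Of 32 heparan sulfate genes, 3 were higher and 2 lower (3.88% and 8.35% over all genes). HS3ST4, GPC5 and HS3ST6 (8 UMIs) were higher, and HS3ST2, another 3-O-sulfotransferase (121 against 282 CPM), and SULF2 were lower. GPC6 was 1.96-fold higher. Of 28 genes of the cytoskeleton, vesicle release and ion pumps, 5 were higher and 2 lower (3.88% and 8.35% over all genes). MAP2 (2.59-fold) and ATP1B1, a sodium pump subunit (2.60-fold), were among those higher. NEFH, the heavy neurofilament of large axons, measured 1699 against 1175 CPM (1.45-fold).

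Next, the set was compared with NTRK3-high nuclei, defined by at least 2 NTRK3 UMIs at 5 or more per 10000, fewer than 2 KIT UMIs and no place in the NTRK2-high set. There were 110 of these, 60 in library 3, with a median of 4518 UMIs. Of their 1127865 UMIs, however, the 11 nuclei of library 4 held 430618 and the 18 of library 6 held 334686. The 60 of library 3 held 271381. On the NTRK2-high side library 4 held 103375 of 1243303 UMIs. The pooled ratios below thus set sides against each other that drew unlike parts of their UMIs from the libraries. Of 7357 genes, 1285 (17.5%) were at least 2-fold higher in NTRK2-high nuclei and 820 (11.1%) lower. All 13 mitochondrial messengers were among the higher ones, and the mitochondrial genome took 2.08% of UMIs in NTRK3-high nuclei. The part of this difference in the counts was not tested.

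The higher genes named against NTRK3-high nuclei were KCNV1, TBX3, TMEM47, CHRNB3, SKOR2, the purine receptor P2RY1, the phosphatase inhibitor PPP1R1A and TFPI2. KCNV1 measured 157 against 3.55 CPM (44.2-fold, 17.0 to 164), TBX3 149 against 7.98 CPM (18.6-fold, 9.61 to 41.4) and SKOR2 133.5 against 9.75 CPM (13.7-fold, 7.46 to 28.0). TMEM47, a membrane protein of cell junctions, measured 195 against 12.4 CPM (15.7-fold). HS3ST4 was 4.56-fold, NTNG1 4.36-fold and ZMAT4 6.17-fold higher. Of 5 A-fibre touch markers with enough UMIs, CACNA1H (3.42-fold) and SLC17A7 (2.16-fold) were higher and ESRRG was at least 2-fold lower. In this contrast 17.5% of all genes were higher and 11.1% lower. PIEZO2 was 1.51-fold higher. Of 15 nociceptor genes, TRPM8, OSMR, TAC1 and NMB were at least 2-fold higher, and SCN10A, TRPA1 and IL31RA at least 2-fold lower.

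KCNQ3 did not separate these 2 kinds of nuclei over all libraries (368 against 380 CPM), although its log2 ratio was 3.20, 1.35 and 2.27 within libraries 1, 3 and 6 and 1.60 without library 4. RYR3 was 3.32 times lower in NTRK2-high nuclei, with a log2 ratio of -1.94 in library 3 but 0.85 in library 6, of -0.75 without library 4 and of -2.94 without library 6. KCNA1 measured 104 against 120 CPM (0.867-fold, 0.676 to 1.11).

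The genes lowest against NTRK3-high nuclei were PTPN5, CDH12, FRMPD4, ATP11A, TMEM132B, VAV3, STXBP5L and MCTP2. PTPN5, the neuronal tyrosine phosphatase STEP, measured 3.22 against 143 CPM (44.4 times lower, on 4 UMIs). CDH12, a cadherin, was 16.2 times lower, and FRMPD4, a synaptic scaffold protein, measured 143 against 1791 CPM (12.5 times lower). ATP11A, a lipid flippase, measured 177 against 2139 CPM (12.1 times lower). PVALB was 4.41 times lower.

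Single libraries moved several of these values by over 1.5 times. Without library 1 the log2 ratio of KCNV1 moved from 5.47 to 6.19 and that of PPP1R1A from 3.87 to 4.59. Without library 3 TMEM47 moved from 3.98 to 4.86, SKOR2 from 3.78 to 4.61, P2RY1 from 4.42 to 3.60 and MCTP2 from -3.39 to -4.06. Without library 4 P2RY1 moved to 3.71, PPP1R1A to 3.07, PTPN5 from -5.47 to -4.86 and CACNA1H from 1.78 to 2.53. CHRNB3, which had 1 UMI in NTRK3-high nuclei, moved from 5.47 to 3.10 without library 4. There a floor of 3 UMIs replaced the missing count, so this fall came from the floor. Without library 5 TFPI2 moved from 4.34 to 5.05, and without library 6 CACNA1H to 1.11.

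The set was then compared with 118 KIT-high nuclei (at least 2 KIT UMIs at 5 or more per 10000; median 4956 UMIs, 7.35% mitochondrial). Of 7092 genes, 677 (9.55%) were at least 2-fold higher in NTRK2-high nuclei and 521 (7.35%) lower. SKOR2 had no UMI in KIT-high nuclei, and against the floor of 3 UMIs over those nuclei it was 42.1-fold higher. That value is set by the floor and is not a lower bound. HS3ST4 measured 557 against 21.2 CPM (26.4-fold, 16.9 to 43.4) and NTNG1 306 against 18.0 CPM (17.0-fold). The other higher genes named were ROBO1, an axon guidance receptor (997 against 73.0 CPM, 13.7-fold), LHFPL3, ATP2B2, a plasma membrane calcium pump (379 against 24.3 CPM, 15.6-fold), ADAM11 and TFPI2. In this contrast all 6 markers were higher, RYR3 (58.7 against 21.2 CPM, 2.78-fold) and KCNQ3 (368 against 136 CPM, 2.69-fold) included. KCNA1 was 10.9-fold, CACNA1H 6.70-fold and PIEZO2 2.06-fold higher.

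KCNQ5 was lower against KIT-high nuclei, at 172 against 2811 CPM (16.3 times lower), as were SYN3, a synapsin of vesicles (169 against 2024 CPM, 12.0 times lower), CDH13, a cadherin (76.4 against 911 CPM, 11.9 times lower), and SCN10A (61.9 against 661 CPM, 10.7 times lower). DGKK, ITGA11, NPFFR2 and EPHB1 were also named, 13.6 to 28.1 times lower. KCNQ3 and KCNQ5 thus stood on opposite sides between these nuclei, in each of libraries 1, 3, 5 and 6: the log2 ratio of KCNQ3 was 0.22 to 2.29 and that of KCNQ5 -4.44 to -3.14.

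Here too single libraries moved values. Without library 1 the log2 ratio of TFPI2 moved from 5.67 to 4.77. With library 3 left out it was 3.88, where the floor of 3 UMIs stood in on the KIT-high side. SKOR2, at 5.40 over all libraries, was at 4.76 when library 3 was left out and at 4.77 when library 6 was. Its KIT-high side was the floor of 3 UMIs each time, taken over fewer UMIs, so these values moved with the floor too. ADAM11 moved from 4.06 to 6.06 without library 4. HS3ST4 moved from 4.72 to 5.56, CDH13 from -3.57 to -2.97 and PIEZO2 from 1.05 to 1.69 without library 6. DGKK moved from -4.69 to -5.60 without library 5, and ITGA11, at -4.81, was at -5.58 and -5.69 when library 4 or 6 was left out.

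**Figure D3:**
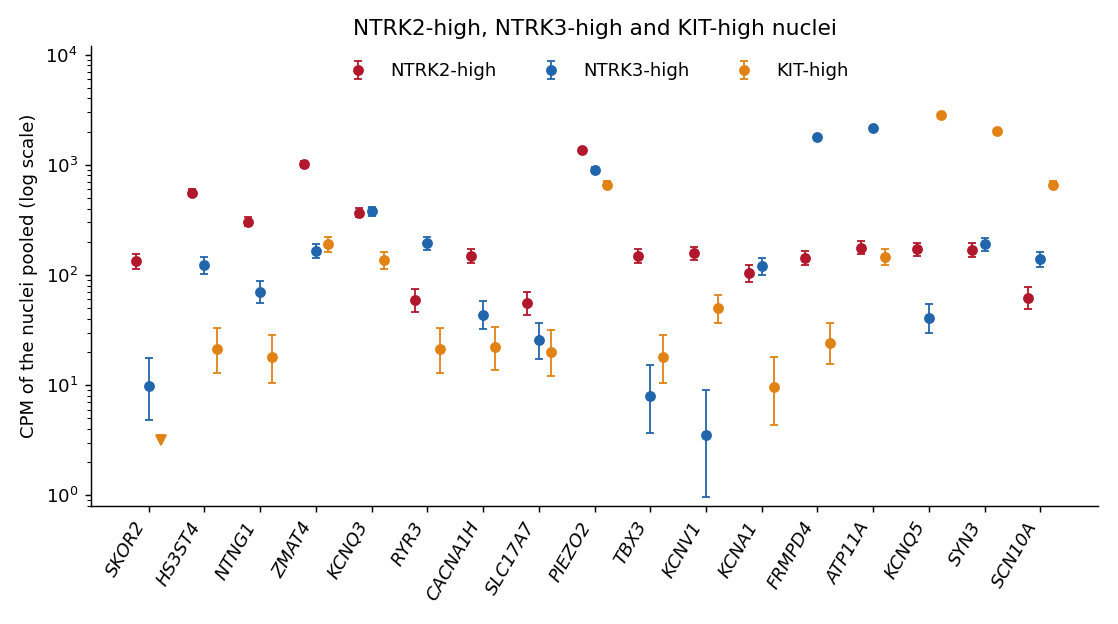
Levels (CPM of the pooled nuclei, log scale) of 17 genes in NTRK2-high (red), NTRK3-high (blue) and KIT-high (orange) nuclei, with 95% counting intervals; the triangle marks the floor of 3 UMIs for SKOR2, which had none in KIT-high nuclei. SKOR2, HS3ST4, NTNG1 and ZMAT4 were highest in NTRK2-high nuclei, FRMPD4 and ATP11A in NTRK3-high nuclei, and KCNQ5 and SYN3 in KIT-high nuclei.

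The NTRK2-high nuclei were not uniform. Of 197, 7 (3.55%, interval 1.44 to 7.18%) were also NTRK3-high, 5 of them from library 3; of the 1992 nuclei outside the set 110 (5.52%) were NTRK3-high, a share inside that interval. No gene could be named between these and the rest, since no library had 10 nuclei on both sides.

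Other genes differed with the level of NTRK2 itself. Nuclei were divided at 10 and 20 NTRK2 UMIs per 10000 into groups of 69, 59 and 69, with 5843, 3407 and 3340 median UMIs. From the lowest to the highest group SKOR2 measured 38.9, 127 and 256 CPM, HS3ST4 101, 359 and 1275 CPM, and KCNQ3 79.7, 289 and 785 CPM. ZMAT4 measured 247, 642 and 2262 CPM and GPC5 399, 1077 and 2984 CPM. PIEZO2, at 494, 1105 and 2643 CPM, and CACNA1H, at 54.5, 130 and 280 CPM, followed the same order. TBX3 did not, at 171, 168 and 106 CPM, and NEFH (2340, 1642 and 946 CPM), CBLN2 (148, 66.7 and 41.0 CPM) and TRPM8 (222, 124 and 24.1 CPM) ran the other way.

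The groups differed in library: library 1 gave 25, 18 and 8 of their nuclei and library 3 gave 25, 29 and 43. Within library 3 alone SKOR2 measured 46.9, 176 and 275 CPM, HS3ST4 133, 406 and 1363 CPM, PIEZO2 329, 941 and 2396 CPM and TRPM8 266, 223 and 20.7 CPM. Within library 1 ZMAT4 measured 247, 604 and 712 CPM, GPC5 455, 913 and 2847 CPM and SKOR2 48.6, 56.2 and 79.1 CPM. These SKOR2 values rested on 11, 4 and 2 UMIs and their intervals overlapped, so they show no order. The ZMAT4 intervals of the middle and highest groups overlapped as well (437 to 813 and 422 to 1125 CPM). HS3ST4 (102, 28.1 and 237 CPM), PIEZO2 (742, 618 and 1028 CPM), KCNQ3 (61.9, 197 and 119 CPM), CACNA1H (44.2, 14.0 and 79.1 CPM), NEFH (3438, 1937 and 2768 CPM) and CBLN2 (203, 140 and 158 CPM) did not keep their order within library 1, and CBLN2 (102, 33.8 and 34.4 CPM) did not keep it throughout within library 3.

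**Figure D4:**
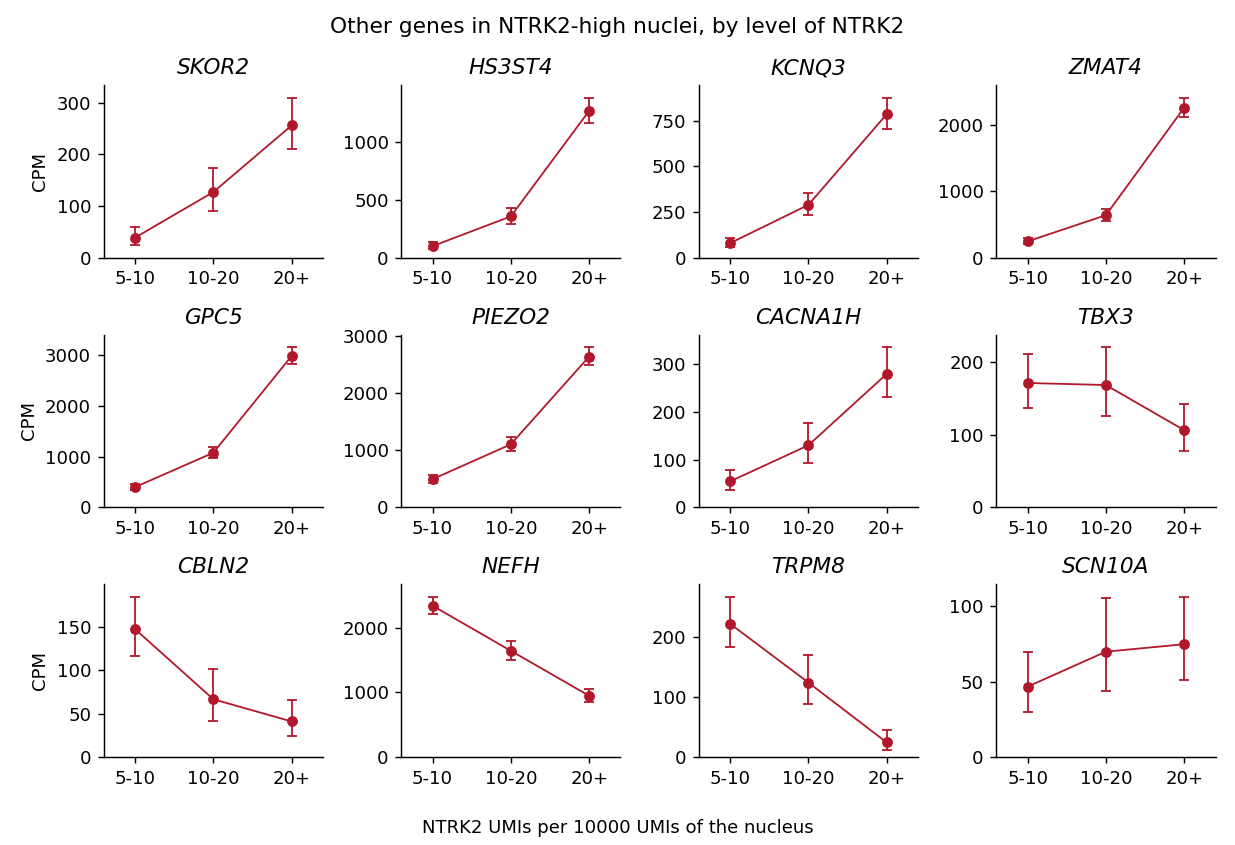
Levels (CPM, with 95% counting intervals) of 12 genes in NTRK2-high nuclei grouped by NTRK2 UMIs per 10000 UMIs (5 to under 10, 10 to under 20, 20 or more; 69, 59 and 69 nuclei). SKOR2, HS3ST4, KCNQ3, ZMAT4, GPC5, PIEZO2 and CACNA1H were highest in the group highest in NTRK2, and NEFH, CBLN2 and TRPM8 in the lowest.

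Subsets were then taken by genes of other neurons, chosen after their values were seen. TRPM8 was present at 2 or more UMIs in 23 NTRK2-high nuclei, spread over libraries 1 (4), 3 (10), 4 (1), 5 (4) and 6 (4). None of these carried SKOR2 or TBX3; TRPM8 stood at 1119 CPM, PIEZO2 at 22.8 CPM and ZMAT4 at 60.9 CPM. SCN10A was present at 2 or more UMIs in 13 nuclei, 4 of which carried SKOR2. Those 4 held 113483 of the 172251 UMIs of the 13 nuclei, 307 of their 345 PIEZO2 UMIs and 161 of their 165 HS3ST4 UMIs, so the PIEZO2 and HS3ST4 of this subset lay mainly in the 4 nuclei with SKOR2. The 73 nuclei with SKOR2 measured 5.49 CPM for TRPM8, 1893 CPM for PIEZO2 and 5.49 CPM for PVALB, at a median of 7635 UMIs.

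Another 92 nuclei had no SKOR2 and fewer than 2 UMIs of TRPM8 and of SCN10A. They were shallower, with a median of 2696 UMIs. They measured 283 CPM for HS3ST4, 632 CPM for ZMAT4, 854 CPM for PIEZO2 and 1377 CPM for GPC5. These levels lay above the comparison nuclei (81.0, 112, 612 and 227 CPM) and below the nuclei with SKOR2 (797, 1414, 1893 and 1771 CPM).

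All nuclei were also clustered on variable genes without NTRK2, NTRK3, KIT and the mitochondrial genome, which gave 28 clusters; the NTRK2-high nuclei fell in 19 of them. A main cluster was one with at least 10 of them, at more than 1 in 3 of its nuclei, which held for clusters 18 (88.7% of its nuclei) and 4 (35.6%). Together they took 78 of 197 (39.6%, interval 32.7 to 46.8%), a share that moved from 23.9% to 53.1% with the resolution or without shallow nuclei. The libraries were not integrated, and both clusters came nearly from 1 library each.

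Cluster 18 held 47 NTRK2-high nuclei of 53, 45 of them from library 3. Its NTRK2-high nuclei measured 295 CPM for SKOR2, 1150 CPM for HS3ST4, 3427 CPM for GPC5, 2036 CPM for PIEZO2 and 823 CPM for NEFH. Cluster 4, all of library 1, held 31 of 87. Those 31 measured 57.2 CPM for SKOR2, 111 CPM for HS3ST4, 225 CPM for CBLN2 and 3315 CPM for NEFH. The 56 other nuclei of cluster 4 measured 12.1 CPM for SKOR2, 12.1 CPM for HS3ST4, 34.4 CPM for CBLN2 and 5478 CPM for NEFH.

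Cluster 5, of libraries 4, 5 and 6, mixed 22 NTRK2-high with 28 NTRK3-high nuclei among 82. Its NTRK2-high nuclei measured 223 CPM for SKOR2, 1211 CPM for HS3ST4 and 28.7 CPM for NTRK3. Its 60 other nuclei measured 10.9 CPM for SKOR2, 243 CPM for HS3ST4, 1535 CPM for NTRK3 and 301 CPM for RYR3.

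Cluster 3, with 18 NTRK2-high nuclei of 128, joined libraries 3 and 4. These 18 measured 94.6 CPM for SKOR2, 392 CPM for TBX3, 230 CPM for CBLN2 and 3846 CPM for NEFH, but 20.3 CPM for HS3ST4. Cluster 15, with 14 of 59, measured 286 CPM for RYR3, 729 CPM for KCNQ3, 78.1 CPM for HS3ST4 and 0 for TBX3 in its NTRK2-high nuclei.

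In clusters 5 and 15 the NTRK2-high nuclei thus lay above the whole set in GPC5 and KCNQ3 and below it in TBX3, CBLN2 and NEFH, and the reverse held in clusters 3 and 4. HS3ST4 followed GPC5 and KCNQ3 in clusters 3, 4 and 5 but not in cluster 15, and cluster 18 was high in TBX3 too. The division followed the libraries in part. The NTRK2-high nuclei of libraries 1 and 4 measured 3054 and 3579 CPM for NEFH and those of libraries 3, 5 and 6 measured 943, 1017 and 787 CPM. The comparison nuclei of libraries 1, 3, 4, 5 and 6 measured 2677, 747, 957, 595 and 825 CPM. RefSeq spans on Sscrofa11.1 were 512276 bases for HS3ST4, 308688 for KCNQ3 and 14064 for TBX3; their part in the division was not tested.

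In 3 clusters with TRPM8 above 500 CPM lay 25 of the NTRK2-high nuclei, and these clusters held no SKOR2 UMI. Another 32 lay in 6 clusters with SCN10A above 400 CPM, but 14 of these were in cluster 15, whose NTRK2-high nuclei held 1 SCN10A UMI. The chosen 2 genes therefore gathered nuclei that the other genes placed in several clusters.

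**Figure D5:**
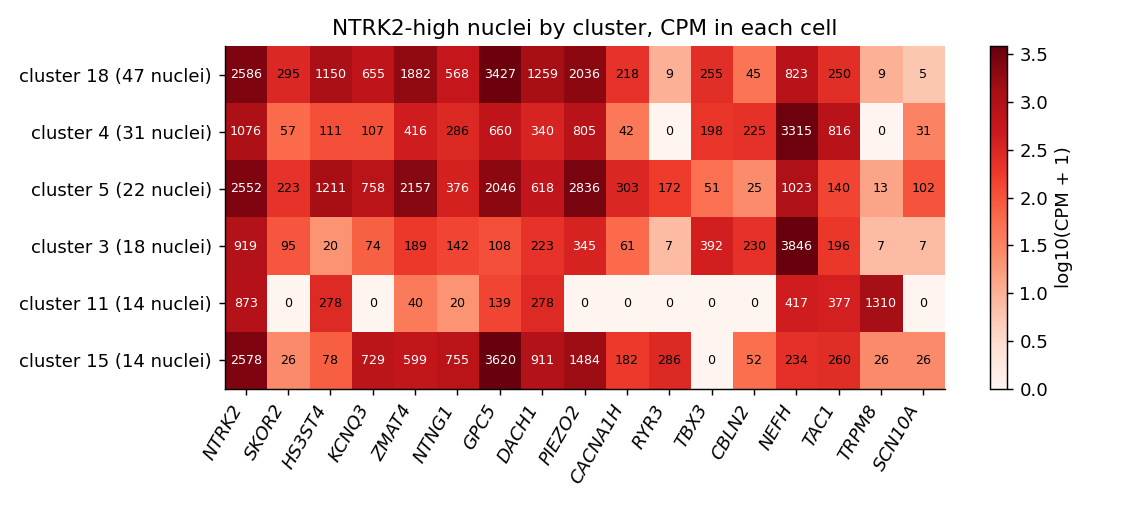
Levels (CPM, printed in each cell; colour is log10 of CPM + 1) of 17 genes in the NTRK2-high nuclei of the 6 clusters that held the most of them. SKOR2 was present in clusters 18, 5, 4 and 3 and, on 1 UMI (26.0 CPM), in cluster 15. It had 0 CPM in cluster 11, where TRPM8 stood at 1310 CPM.

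The KIT limit also bore on the set. The 29 nuclei it left out measured 7.48 CPM for SKOR2, 34.9 CPM for HS3ST4, 102 CPM for ZMAT4, 354 CPM for SCN10A and 259 CPM for RYR3, so they lacked the SKOR2 and HS3ST4 levels of the chosen nuclei. With the KIT limit set by rate (under 5 per 10000), chosen after seeing the data, 207 nuclei were taken and the log2 ratio of RYR3 moved from 0.16 to 1.38. SKOR2 was present in 24 nuclei outside the set that had at least 1 NTRK2 UMI. The 35 nuclei with SKOR2 outside the set had a median of 14092 UMIs, and 11 of them were NTRK3-high.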

How the data were processed

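The authors deposited raw counts (UMIs) in 1 table of 30477 rows by 2189 nuclei, whole numbers with no normalization. Libraries used the 10x Genomics chemistry for 3' ends, per the labels' protocols. The submitters' processing notes list Cell Ranger 6.0.1, Seurat and the build Sscrofa11.1 and say nothing of their use. Whether nuclei were filtered before deposit is unknown here; the shallowest held 501 UMIs. Ensembl identifiers named 14012 of the rows, and symbols were found for 773 of these. No doublet caller was run and no nucleus was removed as a doublet.

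UMIs were summed over NTRK2-high and comparison nuclei, with Python 3.11.15 and scipy 1.17.1. Ratios used genes whose UMIs summed to at least 50, and within a library at least 10 nuclei a side and 10 UMIs, with 0.5 counts added. Intervals are exact at 95%. Named genes followed a rule: the largest 15 higher and 10 lower by the interval bound nearest to 1 with 1 sign over libraries, 8 each way in the other contrasts, and up to 4 a list. Genes outside it were chosen after their values were seen. Clusters used scanpy 1.11.5: 2000 variable genes, 30 components, 15 neighbours, Leiden resolution 1.0. The ratio code was tested on simulated counts. The members and lists were chosen with earlier results of these data known. The alternatives left out 1 library at a time, and changed the rule, depth, weighting, comparison nuclei and UMI minimum.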

Additional observations from a re-analysis of the deposited data

How the results depend on the processing

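Depth and pooling limit these values: with 1 pooled sample, nothing here measures the spread between pigs, and genes with a few UMIs in the NTRK2-high nuclei can turn with a few more. The count of lower genes was 1107, and 464 when comparison nuclei with any NTRK2 UMI were left out and 649 with the libraries weighted equally. At a minimum of 200 UMIs, 276 genes were higher and 472 lower, and at a minimum of 10 UMIs 1970 were higher. Each count was taken over the genes that still entered under its alternative, so these counts do not compare shares of genes. The NTRK2-high share was 5.12% under a stricter rule (3 UMIs, 10 per 10000; 112 nuclei) and from 7.23% without library 3 to 9.69% with 1 library left out at a time. The share in the main clusters was 23.9% at resolution 0.5, 49.2% at 1.5 and 53.1% over nuclei of at least 1500 UMIs. The UMI minima change how many genes enter, and the stricter rule how many nuclei, by construction; beyond that the cause was not tested. Of 116 followed ratios of at least 2-fold, 114 kept their direction under every alternative run. Many of these genes were followed because they had 1 sign over the libraries or the largest ratios of their list. Genes below the UMI minimum under an alternative were passed over there. The count therefore does not measure how stable the ratios were. KCNJ10 (2 UMIs) turned to a log2 ratio of 0.38 under the stricter rule and 0.94 with KIT by rate, and GABRD (1 UMI) to 0.27 under the stricter rule. No paired analysis was possible because the replicate numbers in the labels could not be tied to nuclei.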
